A study of Mus musculus with 14 samples.

Results

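This account compares mouse embryonic stem cells (ESC) with mouse epiblast stem cells (EpiSC), the naive and the primed form of pluripotent cell in the study, across all genes of its table of read counts. The members are 4 of the study's 14 RNA sequencing libraries, chosen by their names in that table: the 2 replicate libraries of the ESC line mESf and the 2 of the EpiSC line 9FEpi. The 14 libraries form 7 groups of 2, and the other 5 groups hold cells in other states or under inhibitors. Those groups are used here only in the filter on low counts, the scaling and the estimate of the spread between replicates. Both lines were derived from blastocysts of a cross between the CD1 and JF1 mouse strains, and no gene was targeted in either of them. The ESC were kept on feeder cells with leukemia inhibitory factor (LIF) in GMEM medium with 15% knockout serum replacement. The EpiSC were kept in Knockout DMEM with 20% knockout serum replacement and 10 ng/ml basic fibroblast growth factor, and whether feeder cells were present is not given for them. Each group is 1 line, so cell state, line, medium, growth factor and feeder layer cannot be told apart in any difference reported here. The replicates are described as biological duplicates. The p-values rest on the spread between replicate libraries, estimated over all 14 libraries, and not on a spread between independent lines.

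Naive ESC resemble the epiblast of the blastocyst before implantation, while EpiSC resemble the epiblast after implantation, when the embryo is about to form its germ layers. ESC are held in the naive state by LIF, which acts through the receptor subunit gp130 and the transcription factor STAT3, and they leave it when fibroblast growth factor drives the ERK kinases. EpiSC depend on fibroblast growth factor together with Activin or Nodal signalling, share the factors OCT4 and SOX2 with ESC, and lack most of the naive transcription factor network.

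The 4 libraries held between 21050377 and 22527090 counted reads, with 18073 to 18454 genes detected by at least 1 read. Pearson's r of log2 CPM between replicates was 0.9936 for ESC and 0.9942 for EpiSC. A chi-square per degree of freedom between replicates, which is 1 for counting error alone, was 1.28 for ESC and 1.54 for EpiSC. The replicates of a line thus differed by little more than counting error. Levels are given as CPM, read counts brought to a common library size with scaling by the trimmed mean of M values, in the order replicate 1, replicate 2. Differences are log2 fold changes of ESC against EpiSC with their standard errors, so that a positive value means a higher level in ESC. A gene is called higher or lower where its adjusted p from edgeR's quasi-likelihood test with Benjamini-Hochberg adjustment is under 0.05, and 2-fold means called with a log2 fold change of at least 1 in size. Where a list has numbers past 2-fold, they follow the order of the counts before them. The deposited counts cover 24015 genes, of which 16247 were tested, and 12103 of them (74.5%) were called. Those called comprised 6015 genes higher in ESC (37%) and 6088 lower (37.5%), and 4523 genes (27.8%) were called with a 2-fold difference, 2331 higher (14.3%) and 2192 lower (13.5%). The median log2 fold change of all genes tested was 0.00, with quartiles at -0.57 and 0.57, and these shares and quartiles are the background against which every group of genes is described. A count given without a share is to be read against the 37% higher and 37.5% lower of all genes tested. The median standard error among the 10708 genes at 10 CPM or more was 0.06, so that differences well under 2-fold passed the test. Both ESC libraries lay above both EpiSC libraries in 6007 of the 6015 genes called higher. They lay below both in 6086 of the 6088 called lower, so a lack of overlap adds little to a call. The libraries came from whole cultures, in which fewer cells of a type and less RNA per cell cannot be told apart.

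The labels of the 2 lines were first set against marker genes. All 9 naive markers were higher in ESC, with summed levels of 3637 and 3623 CPM in the ESC libraries against 574 and 555 CPM in the EpiSC libraries. The 9 primed markers were split. Sox11, Pou3f1, Dnmt3b and Lefty1 were lower in ESC, and Fgf5, Otx2, Zic2, T and Cer1 were higher in ESC. The primed name of the EpiSC therefore rests on the low naive network and on 4 of the 9 primed markers. Of the 4 pluripotency markers in common 3 were higher in ESC and 1 was lower, at summed levels of 3038 and 3055 CPM against 1964 and 1960 CPM. All 8 primitive endoderm markers were higher in ESC, at summed levels of 3011 and 3017 CPM against 373 and 374 CPM. The 10 feeder fibroblast markers were divided 5 to 5, and their summed levels were 3672 and 3654 CPM in ESC and 3747 and 3779 CPM in EpiSC. Trophoblast markers summed to 25.0 and 23.9 CPM in ESC against 3.06 and 3.96 CPM in EpiSC, with Tpbpa at 0 in ESC. The endothelial markers summed to at most 7.25 CPM in any of these libraries, and the blood markers to between 323 and 466 CPM, with Hbb-b1 at 0 in both states.

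The naive regulators moved as a block. Of the 22 genes listed 21 were tested, and all 21 were higher in ESC, against 37% of all genes tested, 19 of them 2-fold, with a median log2 fold change of 2.54. The 12 transcription factors among them had a median of 3.23. Klf2, a Krüppel-like factor of the naive network, stood at 504 and 503 CPM in ESC against 36.5 and 32.6 CPM in EpiSC, a difference of 3.87 ± 0.09 (adjusted p = 1.92e-13). Tbx3, a T-box factor of the same network, stood at 271 and 269 CPM in ESC against 19.6 and 18.9 CPM in EpiSC, a difference of 3.81 ± 0.06. Nr5a2, a nuclear receptor that binds the Pou5f1 regulatory region, stood at 69.8 and 70.3 CPM in ESC against 6.45 and 5.24 CPM in EpiSC, a difference of 3.58 ± 0.08. For each of these genes both ESC libraries lay far above both EpiSC libraries, and the replicates of a line lay close together. Tcl1, a coactivator of the kinase AKT, differed by 4.22 ± 0.06, from 165 and 167 CPM in ESC against 9.06 and 8.79 CPM in EpiSC.

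The factors held in common by both states moved less than the naive regulators, and more of them were higher in ESC than lower. Of 15 such genes 10 were higher in ESC (66.7%, against 37% of all genes tested), 4 were lower and 1 did not pass, with a median of 0.50. Past 2-fold were 6 higher (40%, against 14.3% of all genes tested) and 1 lower (6.67% against 13.5%). The largest rises belonged to Dppa4 (2.99 ± 0.07) and Dppa2 (2.35 ± 0.09), a pair of chromatin proteins encoded side by side. Dppa4 read 75.1 and 73.3 CPM in ESC against 9.26 and 9.37 CPM in EpiSC. The falls were those of Lin28b (-2.46 ± 0.08), Utf1 (-0.33 ± 0.05), Tcf3 (-0.30 ± 0.05) and Lin28a (-0.29 ± 0.04). LIN28 proteins are RNA binding proteins that block the maturation of let-7 microRNAs, and UTF1 is a chromatin-bound protein of pluripotent cells. Utf1 read 334 and 329 CPM in ESC against 424 and 409 CPM in EpiSC, and the libraries of the 2 lines did not overlap.

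The 28 genes of the primed epiblast list did not move as a block: 13 were higher in ESC, 14 were lower and Lef1 did not pass, with 7 and 10 past 2-fold and a median of -0.17. The lower genes included Sox3 (-2.17 ± 0.16), a SOXB1 factor of the epiblast and early neural plate, Cdh2 (-2.14 ± 0.09), which encodes N-cadherin, and Enpp3 (-1.97 ± 0.06). Sox3 stood at 3.80 and 4.98 CPM in ESC against 19.9 and 19.5 CPM in EpiSC. Cdh2 stood at 20.9 and 20.5 CPM in ESC against 91.1 and 91.3 CPM in EpiSC. Both EpiSC libraries exceeded both ESC libraries for each of them. The higher genes included Foxa2 (4.67 ± 0.34), a forkhead factor of endoderm and node, Cer1 (4.89 ± 0.44), a secreted antagonist of Nodal, and Etv5 (1.59 ± 0.04), an ETS factor downstream of FGF. Foxa2 stood at 11.3 and 10.8 CPM in ESC against 0.286 and 0.578 CPM in EpiSC, so that its level in EpiSC was close to the detection limit. Among 11 genes of the formative state, between naive and primed, 5 were higher, 5 were lower and 1 did not pass, at a median of -0.00.

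**Figure D1:**
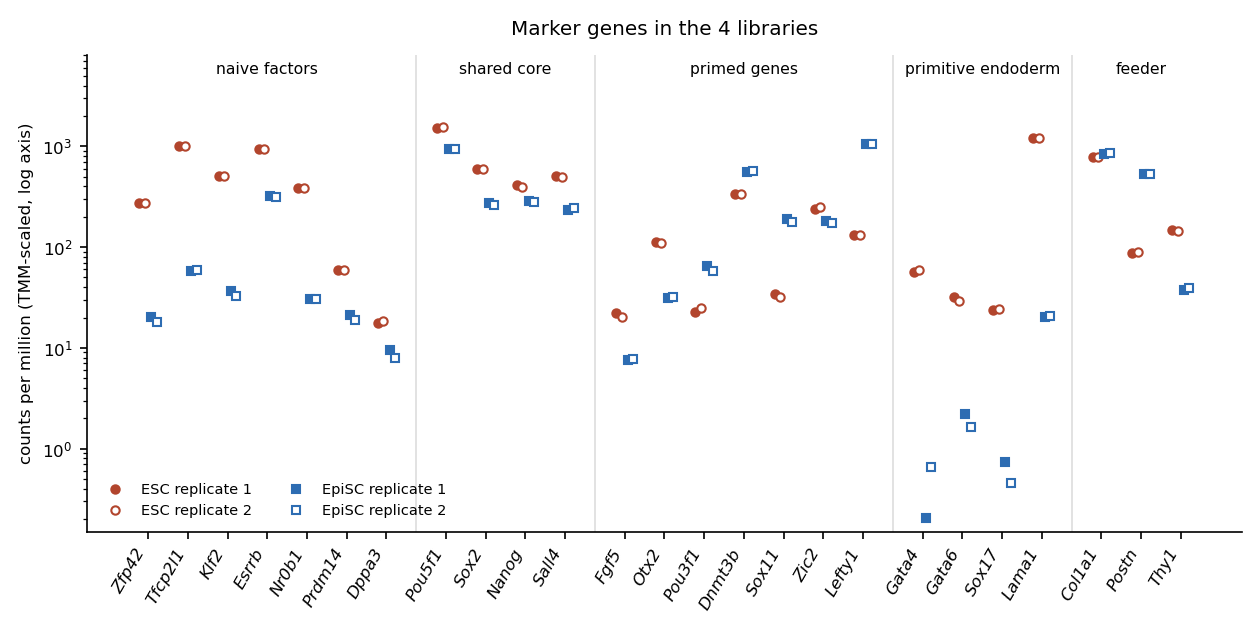
Level of marker genes in each of the 4 libraries, in CPM on a log axis, grouped as naive factors, shared core factors, primed markers, primitive endoderm markers and feeder fibroblast markers. Every naive factor and every primitive endoderm marker lies higher in both ESC libraries than in both EpiSC libraries, while primed and feeder markers lie on either side.

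LIF signalling was described by role. The 32 genes of the list comprised 17 higher in ESC, 9 lower and 6 that did not pass, with 11 and 3 past 2-fold and a median of 0.53. Of the 6 ligands 4 were higher and Il6 was lower (-1.92 ± 0.25), and Lif itself stood at 41.1 and 41.3 CPM in ESC against 20.8 and 20.4 CPM in EpiSC, a difference of 1.000 ± 0.07. Of the 9 receptor and kinase genes 7 were higher and 2 were lower, with a median of 0.89. Lifr, the specific receptor of LIF, stood at 85.4 and 85.3 CPM in ESC against 42.9 and 39.5 CPM in EpiSC, a difference of 1.05 ± 0.06. Il6st, which encodes the shared subunit gp130, stood at 303 and 307 CPM in ESC against 110.4 and 103 CPM in EpiSC, a difference of 1.52 ± 0.05. Both receptor chains were thus higher in both ESC libraries than in either EpiSC library. Jak2 (-0.61 ± 0.09), a kinase of cytokine receptors, and Ptpn11 (-0.50 ± 0.04), a phosphatase that links such receptors to ERK, were lower. The transcription factors of the pathway did not follow the receptors. Stat3 read 187 and 189.9 CPM in ESC against 178 and 178 CPM in EpiSC (0.09 ± 0.04, adjusted p = 0.0521), which passed in 3 of the alternatives, and Stat5b was lower (-1.82 ± 0.09).

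The 13 target genes of LIF and STAT3 were mixed, with 6 higher, 4 lower and a median of 0.28. Higher were Tfcp2l1, Pim3 (1.97 ± 0.04), Socs2 (1.68 ± 0.07), Klf4 (1.63 ± 0.05) and Pim1 (1.21 ± 0.05), where PIM proteins are survival kinases and SOCS2 dampens cytokine receptors. Socs3, the main feedback inhibitor of gp130, was lower at 167 and 163 CPM in ESC against 207 and 200.4 CPM in EpiSC (-0.30 ± 0.04). Junb (-0.80 ± 0.09) and Pim2 (-1.14 ± 0.05) were lower as well. Socs3 thus read lower in the line kept with LIF, in both libraries.

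FGF and ERK signalling was represented by 68 tested genes of 70 listed. Of these 38 were higher in ESC, 23 were lower and 7 did not pass, with 20 and 5 past 2-fold and a median of 0.34. Among 17 tested ligands of 18 listed 9 were higher and 5 lower, with a median of 0.72. Fgf4, the ligand that pluripotent cells make themselves, stood at 317 and 318 CPM in ESC against 60.01 and 57.05 CPM in EpiSC, a difference of 2.44 ± 0.04. Fgf5, a ligand of the epiblast after implantation, stood at 22.02 and 20.2 CPM in ESC against 7.55 and 7.68 CPM in EpiSC, a difference of 1.47 ± 0.16. Both were higher in ESC in every library, and Fgf7 was lower (-0.52 ± 0.08). Of the 16 receptor and coreceptor genes tested of 17 listed 10 were higher and 4 lower. Fgfr1, the main receptor of the epiblast, was lower at 164 and 158 CPM in ESC against 298 and 301 CPM in EpiSC (-0.90 ± 0.04). Fgfr3 was higher at 13.3 and 13.9 CPM in ESC against 3.26 and 3.59 CPM in EpiSC (1.99 ± 0.13), as were Gpc3 (1.49 ± 0.04) and Sdc4 (1.48 ± 0.05), heparan sulfate carriers that hold FGF at the cell surface. Fgfr2, with 19.3 and 21.1 CPM in ESC against 17.6 and 17.3 CPM in EpiSC, did not pass.

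The cascade from RAS to ERK showed small differences in both directions. Of 15 genes 7 were higher and 8 lower, with a median of -0.12, and the GTPase gene Nras (-0.84 ± 0.04) and the kinase gene Braf (-1.04 ± 0.05) were lower. Feedback and target genes of ERK were more often higher, 12 of 20 against 6 lower, with a median of 0.38. They included Dusp4 (2.93 ± 0.06) and Dusp6 (0.50 ± 0.05), phosphatases that switch ERK off, and Spry4 (2.31 ± 0.05) and Spry2 (1.72 ± 0.04), which block RAS activation. Dusp6 stood at 156 and 156 CPM in ESC against 111 and 110.0 CPM in EpiSC. Spry4 stood at 176 and 181 CPM in ESC against 37.4 and 34.8 CPM in EpiSC. In contrast to these, Egr1, a zinc finger gene switched on within minutes by ERK, was lower at 46.6 and 47.9 CPM in ESC against 481 and 472 CPM in EpiSC (-3.34 ± 0.05, adjusted p = 5.38e-38), and Spred1 was lower too (-0.89 ± 0.05). Genes that ERK induces were therefore found on both sides, with the libraries of the 2 lines apart in each of the genes named.

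**Figure D2:**
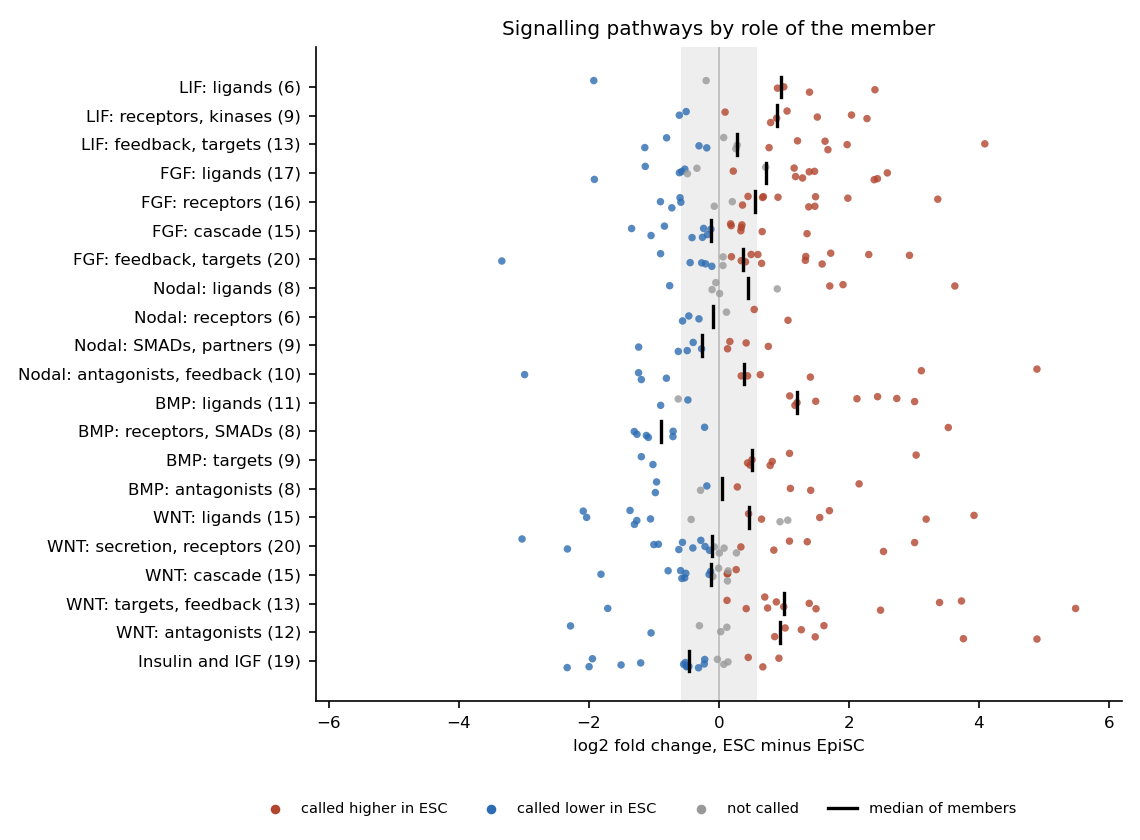
Log2 fold change of ESC against EpiSC for each tested gene of the signalling lists, in strips by role, on an axis from -6 to 6. The grey band marks the quartiles of all genes tested, -0.57 and 0.57, and each black bar is the median of a strip. Red, blue and grey points are genes called higher, called lower and not called. LIF receptors and WNT targets lie mostly to the right of the band, and BMP receptors and SMADs lie mostly to the left of 0.

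Nodal and Activin signalling had 33 tested genes of 35 listed, with 15 higher, 13 lower and 5 not past the test. Its median of 0.12 became -0.04 when counts were scaled by their totals, a scaling that moves the median of all genes to -0.15. The ligand gene Nodal read 114 and 115 CPM in ESC against 113 and 114 CPM in EpiSC (0.01 ± 0.04) and did not pass. Tdgf1, which encodes the Nodal coreceptor Cripto, was lower at 388 and 392 CPM in ESC against 642 and 674 CPM in EpiSC (-0.75 ± 0.04), and Gdf3, a ligand of the same family, was higher (1.71 ± 0.05). The receptors were divided 2 to 3 and the SMAD and partner factors 4 to 5, among them Skil (-1.23 ± 0.04), a corepressor of SMADs, and Tgif1 (0.76 ± 0.04). The antagonists held the widest differences of the pathway. Lefty2, a secreted Nodal inhibitor and Nodal target like Lefty1, was lower at 229 and 228 CPM in ESC against 536 and 538 CPM in EpiSC (-1.23 ± 0.04). Cer1 was higher at 7.69 and 7.10 CPM in ESC against 0.286 and 0.206 CPM in EpiSC (4.89 ± 0.44), and Ltbp1, which stores latent TGF-beta in the matrix, was higher too (1.41 ± 0.05). Inhibitors of one pathway thus lay at opposite ends of the comparison. Of 7 TGF-beta genes 4 were higher, with Ctgf at 1.61 ± 0.04, and 2 were lower, Tgfb2 (-1.96 ± 0.14) and Tgfbi (-0.81 ± 0.05). Feeder cells express those genes as well, and the part of feeder RNA in them was not tested.

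BMP signalling differed by role. Of the 36 genes tested of 40 listed 20 were higher and 14 lower, with a median of 0.46. The 11 ligands tested of 13 listed included 8 higher and 2 lower, with a median of 1.20. Bmp4, the ligand that induces germ cells and mesoderm in the embryo, stood at 61.4 and 57.1 CPM in ESC against 7.38 and 7.31 CPM in EpiSC, a difference of 3.01 ± 0.10. Of the 8 receptors and SMADs, in contrast, 1 was higher and 7 were lower, with a median of -0.89. The lower ones included Bmpr1a, the main type I receptor, at 57.4 and 59.7 CPM in ESC against 124 and 124 CPM in EpiSC (-1.08 ± 0.05), the type II receptor Bmpr2 (-1.11 ± 0.06) and Smad5 (-1.26 ± 0.05), which carries the signal to the nucleus. Most ligand genes and most receptor genes therefore lay on opposite sides, without overlap between the libraries in the genes given. Of 9 target genes tested 7 were higher, including the ID genes, which hold back differentiation by binding basic helix-loop-helix factors. Id3 stood at 77.6 and 74.0 CPM in ESC against 35.2 and 36.2 CPM in EpiSC (1.09 ± 0.06), and Id1 (0.51 ± 0.08), Id2 (0.48 ± 0.08) and Id4 (0.82 ± 0.10) were higher in the same way. Among the antagonists Grem1 (2.16 ± 0.09) was higher and Chrd (-0.97 ± 0.13) was lower.

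WNT signalling had 75 tested genes of 80 listed, 34 higher, 27 lower and 14 not past the test, and its median of 0.13 became -0.02 with counts scaled by their totals. The 15 ligands tested were divided 6 to 6. Wnt8a, expressed in the early primitive streak, was lower at 7.46 and 7.201 CPM in ESC against 30.6 and 29.4 CPM in EpiSC (-2.03 ± 0.14), and so was Wnt3, the WNT ligand needed to start gastrulation, at 2.22 and 3.09 CPM in ESC against 10.6 and 11.8 CPM in EpiSC (-2.08 ± 0.27). Both ligands were 2-fold or more lower in both ESC libraries. Of 20 secretion and receptor genes 6 were higher and 10 lower, with Fzd7 (1.36 ± 0.05) and Porcn (3.01 ± 0.07) among the higher and Fzd3 (-3.02 ± 0.11) and Fzd6 (-0.998 ± 0.12) among the lower. The 15 cascade genes had 3 higher and 8 lower at a median of -0.12. Ctnnb1, which encodes beta-catenin, read 1279 and 1268 CPM in ESC against 1158 and 1172 CPM in EpiSC (0.13 ± 0.03), a sign that turned with counts scaled by their totals. Tcf7l1, the repressor of naive genes at the end of the pathway, was lower (-0.57 ± 0.05), and so was Gsk3b (-0.59 ± 0.05). The 13 target genes stood apart from these roles in their counts: 12 were higher, 1 was lower and the median was 1.00. Axin2, a feedback target of the pathway, stood at 33.7 and 34.5 CPM in ESC against 19.6 and 17.3 CPM in EpiSC (0.89 ± 0.10). Notum, an enzyme that inactivates WNT proteins, stood at 30.2 and 30.8 CPM in ESC against 0.734 and 0.619 CPM in EpiSC (5.49 ± 0.15). Apcdd1 (1.496 ± 0.07) and Tnfrsf19 (0.999 ± 0.10) were also higher, Nkd1 was the 1 lower target (-1.71 ± 0.20), and no target read in EpiSC overlapped its ESC values among those named.

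The remaining pathways gave both directions. Notch genes were divided 9 to 9 among 22 tested, 40.9% each way against 37% and 37.5% of all genes tested. Rbpj, the DNA binding partner of Notch, was higher (1.30 ± 0.05), and Notch3 (-2.03 ± 0.05), Nrarp (-2.74 ± 0.20) and Jag2 (-0.79 ± 0.09) were lower. Of 13 Hedgehog genes 6 were higher and 4 lower, and their median of 0.11 became -0.04 with counts scaled by their totals. Retinoid genes had 7 higher and 9 lower of 18. Cyp26a1, which degrades retinoic acid, was higher at 25.1 and 21.7 CPM in ESC against 0.979 and 1.24 CPM in EpiSC (4.40 ± 0.20), whereas Crabp2, which carries retinoic acid to the nucleus, was lower (-1.24 ± 0.09). Rarg was higher (1.67 ± 0.05) and Rara lower (-0.97 ± 0.05), so that the 2 receptor genes moved in opposite directions. Hippo pathway genes were divided 10 to 10 among 21, 47.6% each way against the same 37% and 37.5%. Tead4 was higher (2.67 ± 0.09), and Tead2 (-1.80 ± 0.04), Yap1 (-0.45 ± 0.04) and Wwtr1 (-0.72 ± 0.05) were lower. Insulin and IGF genes were mostly lower in ESC, 13 of 19 against 3 higher, with a median of -0.46. Igfbp5 (-2.33 ± 0.08) and Igfbp3 (-1.94 ± 0.04) bind IGF outside the cell and were among the lower genes. Igf2, a growth factor expressed from the paternal allele, was lower at 131 and 130.4 CPM in ESC against 296 and 304 CPM in EpiSC (-1.20 ± 0.04). Other receptor tyrosine kinases and their ligands had 19 higher and 9 lower of 33 tested, among them Kit at 115 and 108 CPM in ESC against 38.02 and 38.5 CPM in EpiSC (1.55 ± 0.06) and Pdgfa (3.21 ± 0.06) higher, and Erbb2 (-1.17 ± 0.07) and Ntrk2 (-2.14 ± 0.22) lower.

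Immediate early genes, which are transcribed within minutes of a stimulus, included some of the largest falls. Of the 35 genes 13 were higher, 17 lower and 5 did not pass, with 5 and 10 past 2-fold and a median of -0.30. Fos stood at 7.23 and 7.39 CPM in ESC against 295 and 292.8 CPM in EpiSC, a difference of -5.33 ± 0.07 (adjusted p = 1.65e-39). Fosb stood at 3.21 and 3.53 CPM in ESC against 179 and 171 CPM in EpiSC, a difference of -5.70 ± 0.12. Jun, the partner of FOS in the AP-1 dimer, stood at 93.7 and 96.5 CPM in ESC against 269.7 and 263 CPM in EpiSC, a difference of -1.49 ± 0.05. All 3 AP-1 genes lay lower in both ESC libraries than in either EpiSC library. Egr2 (-2.90 ± 0.18), Btg2 (-1.94 ± 0.05) and Zfp36 (-1.14 ± 0.09) fell with them. The group was not uniform: Fosl2 (1.06 ± 0.05), Atf3 (0.86 ± 0.09), Maff (1.08 ± 0.07) and Dusp1 (0.40 ± 0.05) were higher in ESC, and Ier2 did not pass at 225 and 219 CPM in ESC against 221 and 211 CPM in EpiSC. Motifs were searched on either strand in the 300 bases from 250 before to 50 after the annotated start. The cyclic AMP element TGACGTCA lay in 4 of 28 promoters of the group that matched RefSeq (14.3%). It lay in 2.03% of 27025 promoters and in 3.32% of those of 12669 tested genes. Its matches were Maff and Dusp1, both higher in ESC, Btg2, which was lower, and Ppp1r15a, so the element did not mark the falls alone. For the CArG box of serum response genes a loose pattern was searched, with only the central AT of its A/T core fixed. The pattern lay in 6 of the 28 promoters (21.4%, against 5.15% of all and 5.98% of those of tested genes). It lets G or C into the rest of that core and misses boxes with another centre. A match to the pattern therefore need not be a CArG box. The promoters matched included that of Egr2, which was lower, and those of Atf3 and Klf2, which were higher.

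Among regulators of DNA methylation 13 of the 24 tested genes of 25 listed were higher, 6 lower and 5 did not pass, with a median of 0.15. With counts scaled by their totals 9 were higher and 10 lower, at a median of -0.00, and with the 4 libraries fitted alone 13 were higher and 10 lower. Dnmt3l, a cofactor of the de novo methyltransferases without activity of its own, showed the largest difference of all genes at 100 CPM or more, 6.26 ± 0.05, from 1069 and 1075 CPM in ESC against 13.7 and 14.2 CPM in EpiSC. The active enzymes went the other way. Dnmt3a stood at 161 and 154 CPM in ESC against 315 and 313 CPM in EpiSC (-0.996 ± 0.05), and Dnmt3b differed by -0.76 ± 0.04. Cofactor and enzyme were thus on opposite sides, while the maintenance enzyme Dnmt1 differed by 0.12 ± 0.03, a sign that turned with counts scaled by their totals, and its partner Uhrf1 by 0.54 ± 0.04. Tet1 (0.95 ± 0.04) and Tet2 (1.65 ± 0.05), which oxidise methylated cytosine, were higher, and Tet3 was lower (-0.57 ± 0.07). Zfp57, a zinc finger protein that protects methylation at imprinted regions, was higher at 396 and 389 CPM in ESC against 95.6 and 96.3 CPM in EpiSC (2.03 ± 0.04).

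Histone regulators showed a lean toward higher levels in ESC in some families and none in others. The 6 enzymes of the MLL and SET1 family, which methylate lysine 4 of histone H3, were all higher, 2 of them 2-fold, with a median of 0.92. Setd1b stood at 179.6 and 180.4 CPM in ESC against 44.9 and 43.3 CPM in EpiSC (2.03 ± 0.05), Kmt2c differed by 1.72 ± 0.04, Kmt2d by 0.95 ± 0.04, Kmt2b by 0.89 ± 0.04, Setd1a by 0.37 ± 0.04 and Kmt2a, whose sign turned with counts scaled by their totals, by 0.13 ± 0.05. Of the 12 genes for their partner proteins 8 were higher and 2 lower, the latter being Men1 (-0.25 ± 0.05) and Psip1 (-1.05 ± 0.04), which tether MLL enzymes to chromatin. Histone demethylases gave 14 higher and 5 lower of 19 tested, 7 and 0 past 2-fold, with Kdm3a (2.35 ± 0.05), Kdm5b (1.80 ± 0.04) and Kdm4b (1.77 ± 0.06) the largest. Kdm3a stood at 331 and 331 CPM in ESC against 60.99 and 68.4 CPM in EpiSC. Kdm6b was lower (-0.67 ± 0.05). Polycomb genes were close to the background, with 14 higher and 11 lower of 32 and a median of 0.09 that became -0.06 with counts scaled by their totals. Within PRC2, which methylates lysine 27 of histone H3, Eed (1.32 ± 0.04), Jarid2 (1.19 ± 0.04) and Mtf2 (1.01 ± 0.04) were higher, the catalytic gene Ezh2 was lower at 168 and 169.7 CPM in ESC against 214 and 219.7 CPM in EpiSC (-0.36 ± 0.04), and Suz12 did not pass at 330.4 and 338 CPM in ESC against 316 and 317 CPM in EpiSC, though it did in 3 of the alternatives. Within PRC1 Cbx7 was higher (1.15 ± 0.04) and Cbx2 was lower (-0.74 ± 0.07), so that the CBX genes shifted in opposite directions. For the lysine 9 methylation system 11 of 18 genes were higher and 6 lower, including Trim28 (0.84 ± 0.03) and Setdb1 (-1.004 ± 0.04). Remodelling complexes had 11 higher and 14 lower of 30 tested with 2 and 1 past 2-fold, and of 15 histone variant genes 2 were higher and 9 lower, with H1f0 (-0.86 ± 0.05) and H2afy2 (-1.496 ± 0.09) among the lower.

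Enzymes of glycolysis were higher in ESC as a group: 20 of 23 were higher, 2 lower and 1 did not pass, with 9 and 0 past 2-fold and a median of 0.88. Hk2, the first enzyme of the route, stood at 505 and 495 CPM in ESC against 169 and 172 CPM in EpiSC (1.55 ± 0.04). Aldoa, which splits the sugar, stood at 2587 and 2591 CPM in ESC against 985 and 996 CPM in EpiSC (1.39 ± 0.03). Ldhb (1.01 ± 0.04) and Ldha (0.75 ± 0.03), which make and use lactate, and Pkm (0.88 ± 0.04), the last step to pyruvate, were higher too. Every one of these genes was higher in both ESC libraries, while the lactate transporter gene Slc16a1 was lower (-0.55 ± 0.04). Gapdh read 8.41 and 8.22 CPM in ESC against 8.28 and 8.83 CPM in EpiSC and did not pass, and like Eno1, Pgk1 and Pgam1 it has near-identical copies in the genome, which makes its count uncertain because the handling of reads with several matches is not given. The 14 regulators of glycolysis were divided 6 to 6. Txnip, which blocks glucose uptake and is itself induced by glucose, was lower at 6.60 and 7.06 CPM in ESC against 330.0 and 324 CPM in EpiSC (-5.58 ± 0.06). Its relative Arrdc4 was lower at 10.4 and 9.33 CPM in ESC against 94.8 and 85.9 CPM in EpiSC (-3.19 ± 0.08). Pdk1, which keeps pyruvate out of the mitochondrion, was higher (2.31 ± 0.05), and Pdk4, of the same kinase family, was lower (-1.70 ± 0.12). Genes of the citric acid cycle gave 16 higher and 12 lower of 30, 2 and 0 past 2-fold, at a median of 0.12 that became -0.04 with counts scaled by their totals. Of these Pcx (1.998 ± 0.05) and Idh2 (1.61 ± 0.04) were the ones past 2-fold.

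Threonine, serine and glycine metabolism and the folate cycle had 17 higher and 6 lower of 24, with 8 and 2 past 2-fold and a median of 0.60. Tdh, the threonine dehydrogenase of mouse ESC, stood at 489 and 473 CPM in ESC against 44.2 and 45.5 CPM in EpiSC (3.42 ± 0.04, adjusted p = 2.05e-41). Gcat, which takes the next step from threonine to glycine, was higher (2.45 ± 0.05), and so was Gldc, which breaks glycine down, at 318 and 316 CPM in ESC against 150.8 and 154 CPM in EpiSC (1.06 ± 0.04). Consecutive enzymes of threonine use thus rose together. Ahcy, which clears the product of methylation reactions, was lower (-1.498 ± 0.08). Amino acid transporters were also mostly higher, 15 of 21 against 6 lower, with Slc7a5 (1.36 ± 0.04), Slc7a1 (2.000 ± 0.05), Slc1a4 (1.94 ± 0.05) and Slc38a2 (1.24 ± 0.04) higher and Slc43a1 (-1.56 ± 0.09) and Slc1a3 (-1.48 ± 0.08) lower.

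The integrated stress response, in which the factor ATF4 raises genes for amino acid supply, was higher in 33 of 37 genes, lower in 3, with 17 and 0 past 2-fold and a median of 0.97. Of its 25 target genes 24 were higher and Pycr1 did not pass. Asns, asparagine synthetase, stood at 766 and 765 CPM in ESC against 244 and 248 CPM in EpiSC (1.64 ± 0.03). Chac1, which degrades glutathione, stood at 132 and 127 CPM in ESC against 26.4 and 25.1 CPM in EpiSC (2.33 ± 0.06). Nupr1, a stress-induced nuclear protein, stood at 56.1 and 59.97 CPM in ESC against 16.6 and 18.2 CPM in EpiSC (1.74 ± 0.07). All 3 were higher in both ESC libraries without overlap. Ddit3 (2.36 ± 0.08), Sesn2 (2.36 ± 0.05) and Stc2 (2.64 ± 0.08) rose with them, whereas the kinase genes Eif2ak2 (-0.68 ± 0.07) and Eif2ak4 (-0.19 ± 0.06) and Cebpg (-0.22 ± 0.06), a partner of ATF4, were lower. The amino acid response element to which ATF4 dimers bind, searched as TGATGNAA on both strands, lay in 10 of the 32 promoters matched for the list (31.2%, against 4.51% of 27025 promoters and 2.92% of those of 12669 tested genes). The 3 targets above are shown because each holds 1 match within 250 bases before its annotated start. The sequences are from RefSeq on GRCm38.p6, read 5′ to 3′ on the strand of the gene, with the match in capitals: Asns at chr6:7693210-7693459 on the minus strand, Chac1 at chr2:119350992-119351241 on the plus strand and Nupr1 at chr7:126625471-126625720 on the minus strand.
Asns: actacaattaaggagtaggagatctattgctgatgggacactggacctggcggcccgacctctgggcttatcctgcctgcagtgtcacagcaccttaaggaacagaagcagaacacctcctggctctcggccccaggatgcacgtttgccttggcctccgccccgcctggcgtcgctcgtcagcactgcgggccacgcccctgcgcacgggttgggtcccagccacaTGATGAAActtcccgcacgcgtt
Chac1: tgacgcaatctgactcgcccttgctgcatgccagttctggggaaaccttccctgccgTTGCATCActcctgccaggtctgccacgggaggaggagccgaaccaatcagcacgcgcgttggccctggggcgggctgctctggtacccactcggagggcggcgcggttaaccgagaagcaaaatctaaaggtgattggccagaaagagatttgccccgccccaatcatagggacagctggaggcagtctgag
Nupr1: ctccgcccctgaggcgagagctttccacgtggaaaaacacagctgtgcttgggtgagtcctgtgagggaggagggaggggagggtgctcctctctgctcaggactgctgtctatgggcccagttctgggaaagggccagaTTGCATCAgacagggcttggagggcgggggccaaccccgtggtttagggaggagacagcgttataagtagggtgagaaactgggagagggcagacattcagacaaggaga
The match begins 23 bases before the start in Asns, 193 in Chac1 and 110 in Nupr1, on the strand of the gene in Asns and on the opposite strand in the other 2. Such a match is a description of these letters and not a binding site.

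The unfolded protein response did not move with the integrated stress response. Of its 21 genes 8 were higher and 10 lower, at a median of -0.08. Herpud1, which helps to clear misfolded proteins from the endoplasmic reticulum, was higher at 110.4 and 110.2 CPM in ESC against 23.1 and 23.9 CPM in EpiSC (2.23 ± 0.06), and Manf (-0.70 ± 0.04) was lower. Of 17 heat shock genes 8 were higher and 6 lower, at a median of 0.09 that became -0.07 with counts scaled by their totals. Hspb1, a small heat shock protein, was higher at 74.2 and 73.7 CPM in ESC against 30.1 and 29.1 CPM in EpiSC (1.32 ± 0.06), and Hspa4l was lower at 7.64 and 6.52 CPM in ESC against 38.3 and 40.5 CPM in EpiSC (-2.47 ± 0.11). Among targets of p53 9 of 26 were higher (34.6%, against 37% of all genes tested) and 14 lower (53.8% against 37.5%). The lower ones included the apoptosis genes Perp (-1.63 ± 0.08) and Pmaip1 (-0.93 ± 0.04).

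Lipid synthesis genes were mostly lower in ESC. Of 19 cholesterol synthesis enzymes tested 17 were lower, 1 was higher and Mvk did not pass, with 8 lower and 1 higher past 2-fold and a median of -0.91. Sc5d, a sterol desaturase, stood at 17.4 and 17.8 CPM in ESC against 53.9 and 50.2 CPM in EpiSC (-1.56 ± 0.07). Msmo1 (-1.41 ± 0.05), Fdps (-1.43 ± 0.07) and Hsd17b7 (-1.46 ± 0.11) were lower in the same way. The exception was Ebp, a sterol isomerase, at 72.4 and 79.7 CPM in ESC against 35.6 and 37.8 CPM in EpiSC (1.05 ± 0.06), so that neighbouring steps of the route lay on opposite sides. Srebf1 (-0.74 ± 0.04) and Srebf2 (-0.39 ± 0.04), which encode the factors that switch on these enzymes, were lower, as was Stard4 (-2.40 ± 0.09), a sterol carrier. The sterol element TCACNCCAC lay in 0 of 24 promoters matched for the cholesterol lists, against 1.44% of 27025 promoters. Fatty acid synthesis had 13 lower and 4 higher of 20 tested, with 9 and 1 past 2-fold and a median of -0.97. Fasn, the fatty acid synthase, stood at 767 and 756 CPM in ESC against 1331 and 1339.9 CPM in EpiSC (-0.81 ± 0.04). Scd1, which makes monounsaturated fatty acids, stood at 80.2 and 80.7 CPM in ESC against 257 and 256 CPM in EpiSC (-1.67 ± 0.04). Fads2 (-2.34 ± 0.05), Fads1 (-1.40 ± 0.04), Elovl6 (-1.41 ± 0.04) and Acly (-0.97 ± 0.03) were lower too, and EpiSC exceeded ESC in each library for all of these genes. Fatty acid oxidation gave 14 lower and 6 higher of 22, with Cpt1a lower (-1.004 ± 0.04) and Acadm higher (1.22 ± 0.06).

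Most genes of the hypoxia list were higher in ESC, while Hif1a was not. Of the 21 genes tested of 22 listed 18 were higher and 2 lower, with 12 and 0 past 2-fold and a median of 1.34. Vegfa, a growth factor for blood vessels, stood at 194 and 196 CPM in ESC against 77.4 and 76.3 CPM in EpiSC (1.34 ± 0.04). Egln3, an oxygen sensor induced by hypoxia, stood at 90.6 and 91.0 CPM in ESC against 25.5 and 22.5 CPM in EpiSC (1.92 ± 0.06). P4ha1, which hydroxylates collagen, stood at 218 and 222 CPM in ESC against 99.0 and 93.7 CPM in EpiSC (1.19 ± 0.04). Ndrg1 (2.96 ± 0.05), Adm (2.44 ± 0.08) and Car9 (2.21 ± 0.14) rose in the same direction, and every ESC library lay above both EpiSC libraries for the genes given. Hif1a, the oxygen-regulated factor itself, was lower by a small margin (-0.10 ± 0.04), a call lost without ESC replicate 2, without either EpiSC replicate, or with no filter on low counts. Arnt, its dimer partner, was lower (-0.75 ± 0.04), and Epas1, which encodes HIF-2 alpha, was higher at 271 and 274 CPM in ESC against 60.7 and 57.2 CPM in EpiSC (2.21 ± 0.04). Oxygen tension in the cultures is not given. The core hypoxia element ACGTG lay in 12 of the 18 promoters matched (66.7%, against 21.8% of 27025 promoters and 27.8% of those of tested genes). The list was chosen for known roles in hypoxia, so this share does not bear on the difference between the states. The matches included Hif1a, which was lower in ESC. The upstream 250 bases of Egln3 (chr12:54203875-54204124, minus strand) and P4ha1 (chr10:59323046-59323295, plus strand) on GRCm38.p6 from RefSeq are shown because both genes are targets with a match before the start, in capitals.
Egln3: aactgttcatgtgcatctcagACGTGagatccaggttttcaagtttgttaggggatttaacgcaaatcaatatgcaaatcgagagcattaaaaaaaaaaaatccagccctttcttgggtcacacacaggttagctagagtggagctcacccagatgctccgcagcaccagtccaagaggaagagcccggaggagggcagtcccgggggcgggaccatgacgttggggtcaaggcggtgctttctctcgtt
P4ha1: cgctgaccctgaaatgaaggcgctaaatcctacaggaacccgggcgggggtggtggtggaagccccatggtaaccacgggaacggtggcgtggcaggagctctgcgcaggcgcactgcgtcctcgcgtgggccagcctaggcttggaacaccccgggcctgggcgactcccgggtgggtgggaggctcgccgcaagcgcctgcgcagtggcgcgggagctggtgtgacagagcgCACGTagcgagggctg
The match begins 229 bases before the start of Egln3 on the strand of the gene and 16 bases before that of P4ha1 on the opposite strand. These matches are likewise a description of letters and not binding sites.

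Lysosome and autophagy genes were higher in 22 of 28 and lower in 3, with 11 and 0 past 2-fold and a median of 0.79. The list includes the factors that drive lysosomal genes, and Tfeb (3.22 ± 0.08), Mitf (1.93 ± 0.10) and Tfe3 (1.248 ± 0.04) were all higher. Tfe3, which keeps ESC naive when it is in the nucleus, stood at 362 and 367 CPM in ESC against 154 and 153 CPM in EpiSC. Flcn, which keeps TFE3 out of the nucleus, was higher as well (1.55 ± 0.05). Becn1 (-0.57 ± 0.05), Gabarapl1 (-0.54 ± 0.05) and Atg5 (-0.29 ± 0.06), which act in forming autophagosomes, were the lower genes. Metallothioneins, small proteins that bind zinc, rose together for Mt1 at 318 and 320.5 CPM in ESC against 51.6 and 53.2 CPM in EpiSC (2.61 ± 0.05) and Mt2 at 376 and 378 CPM in ESC against 66.8 and 64.9 CPM in EpiSC (2.52 ± 0.04), while Mt3 was lower (-3.48 ± 0.40). The zinc importer genes Slc39a10 (-1.21 ± 0.05) and Slc39a8 (-4.61 ± 0.10) were lower.

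**Figure D3:**
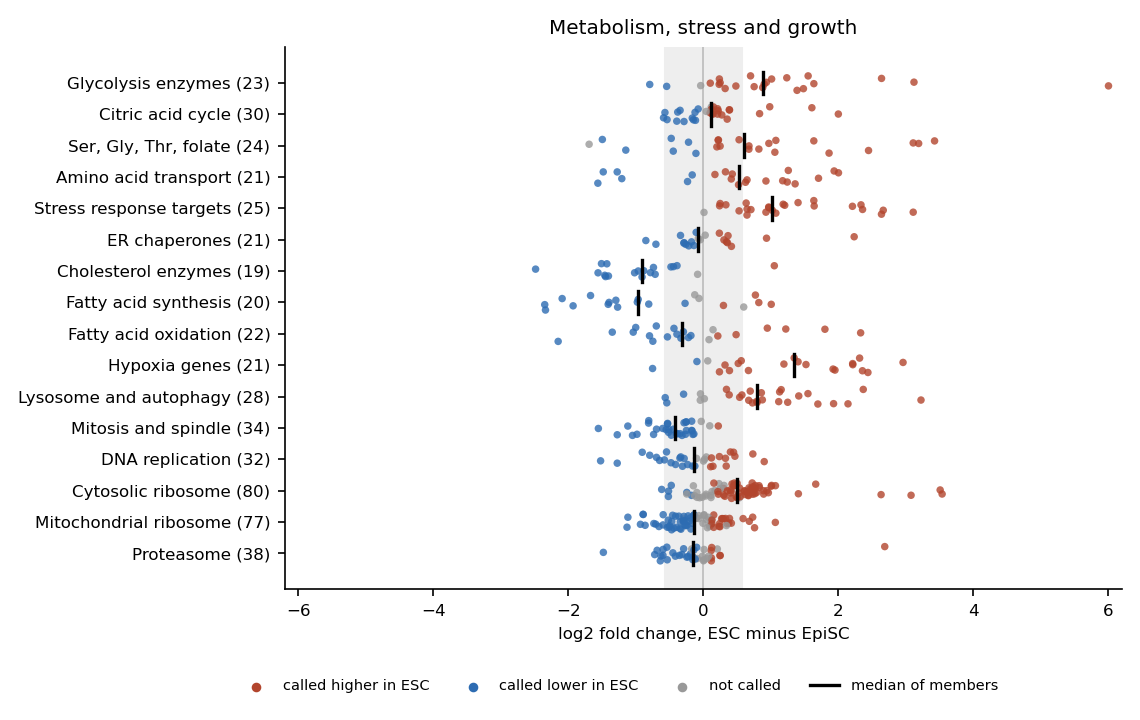
Log2 fold change of ESC against EpiSC for each tested gene of the metabolic and stress lists, on an axis from -6 to 6, with the grey band at the quartiles of all genes tested, -0.57 and 0.57, and a black bar at each list's median. Hkdc1 at 9.77 is drawn at the edge, and red, blue and grey points are genes called higher, called lower and not called. Glycolytic enzymes, the integrated stress response, hypoxia and lysosome lists sit to the right of 0, and cholesterol and fatty acid synthesis sit to the left.

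Cell cycle genes shifted by small amounts in a common direction late in the cycle. Of 34 genes of mitosis 31 were lower in ESC, 1 was higher and 2 did not pass, with 4 lower past 2-fold and a median of -0.43. Cdk1, the kinase that drives mitosis, stood at 167 and 169 CPM in ESC against 222 and 223 CPM in EpiSC (-0.40 ± 0.04). Ccnb2, a cyclin that binds it, stood at 103 and 108 CPM in ESC against 177 and 175 CPM in EpiSC (-0.74 ± 0.04). Mki67, the proliferation antigen, stood at 212 and 197 CPM in ESC against 435 and 453 CPM in EpiSC (-1.12 ± 0.04). Both EpiSC libraries lay above both ESC libraries for all 3. Aurkb (-1.56 ± 0.04) and Mad2l1 (-1.05 ± 0.05) were lower too, and Ndc80 was the 1 higher gene (0.22 ± 0.06). Replication genes were lower in 17 of 32 (53.1%, against 37.5% of all genes tested) and higher in 11 (34.4% against 37%). Past 2-fold were 2 and 0, and the median was -0.15. Genes of the G1 phase were divided 12 to 12. Ccnd2 was higher at 217 and 215 CPM in ESC against 128 and 124 CPM in EpiSC (0.78 ± 0.05) and Ccnd3 was higher (0.61 ± 0.04), while Cdkn1c, an imprinted inhibitor, was lower at 14.96 and 14.9 CPM in ESC against 104 and 103 CPM in EpiSC (-2.79 ± 0.08), and Ccne1 (-0.83 ± 0.04) and Cdk6 (-1.63 ± 0.12) were lower. The cell cycle homology element TTTGAA, found in promoters switched on for mitosis, lay in 21 of 30 matched promoters of the mitosis list (70%, against 20.2% of 27025 promoters and 14.4% of those of tested genes), and CCAAT lay in 22 of 30 (73.3% against 41.1%). The upstream sequences of Cdk1 (chr10:69352913-69353162), Ccnb2 (chr9:70421555-70421804) and Top2a (chr11:99024190-99024439), all on the minus strand of GRCm38.p6 in RefSeq, are shown because these genes moved together, with TTTGAA or its reverse complement in capitals.
Cdk1: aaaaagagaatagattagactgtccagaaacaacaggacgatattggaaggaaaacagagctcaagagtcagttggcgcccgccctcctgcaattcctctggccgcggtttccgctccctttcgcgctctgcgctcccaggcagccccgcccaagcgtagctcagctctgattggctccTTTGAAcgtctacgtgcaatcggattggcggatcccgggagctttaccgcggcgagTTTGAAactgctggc
Ccnb2: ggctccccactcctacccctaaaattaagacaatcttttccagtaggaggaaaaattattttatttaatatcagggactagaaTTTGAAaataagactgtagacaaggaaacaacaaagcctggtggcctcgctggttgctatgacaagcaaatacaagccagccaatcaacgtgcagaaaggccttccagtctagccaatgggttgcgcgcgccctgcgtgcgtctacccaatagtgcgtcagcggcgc
Top2a: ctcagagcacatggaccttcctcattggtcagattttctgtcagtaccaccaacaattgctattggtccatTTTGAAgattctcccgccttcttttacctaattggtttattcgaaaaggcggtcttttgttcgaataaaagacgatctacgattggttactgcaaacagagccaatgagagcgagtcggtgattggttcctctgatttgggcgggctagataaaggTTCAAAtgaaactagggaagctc
Cdk1 holds 2 matches, 71 and 15 bases before the start, Ccnb2 holds 1 at 167 bases, and Top2a holds 2 at 179 and 23 bases, the latter on the opposite strand. Top2a, which untangles chromosomes, differed by -1.28 ± 0.03.

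Epithelial genes were higher in 15 of 26 and lower in 8, with 6 and 0 past 2-fold and a median of 0.52. Cdh1, which encodes E-cadherin, stood at 290.3 and 285 CPM in ESC against 199.9 and 203 CPM in EpiSC (0.51 ± 0.04). Grhl2 (2.97 ± 0.07) and Esrp1 (1.000 ± 0.08), an epithelial transcription factor and splicing factor, were higher as well, and Epcam (-0.68 ± 0.04) and Tjp1 (-0.55 ± 0.04) were lower. The mesenchymal list gave 9 higher and 6 lower of 17. Snai1, the repressor of E-cadherin, was higher at 35.5 and 36.2 CPM in ESC against 12.6 and 11.97 CPM in EpiSC (1.54 ± 0.09), while Zeb2, a repressor of the same gene, was lower (-1.01 ± 0.08). Cadherins of epithelium and mesenchyme, Cdh1 and Cdh2, thus had their higher levels in opposite states, with no overlap between libraries. Fn1, fibronectin, was higher at 6500.3 and 6473 CPM in ESC against 2428 and 2438 CPM in EpiSC (1.41 ± 0.03). Basement membrane genes were higher in 17 of 21 tested of 23 listed and lower in 3, with a median of 1.01. Lamc1 stood at 1686 and 1691 CPM in ESC against 532 and 536 CPM in EpiSC (1.66 ± 0.04), Lamb1 differed by 1.63 ± 0.04 and Col4a2 by 2.43 ± 0.04, whereas Col4a5 (-0.82 ± 0.09) and Col4a6 (-3.85 ± 0.36), collagen chains encoded on the X chromosome, were lower. The 24 genes of the longer feeder list, which holds Fn1, gave 13 higher and 10 lower at a median of 0.18, with summed levels of 13348 and 13292 CPM in ESC against 9012 and 9064 CPM in EpiSC. Thy1 (1.94 ± 0.05) and Lox (1.49 ± 0.04) were higher and Postn (-2.59 ± 0.04), Dcn (-1.95 ± 0.04) and Lum (-1.61 ± 0.06) lower in it, and the part of feeder RNA in the matrix genes was not tested.

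Primitive endoderm, the layer that covers the epiblast, was a lineage whose genes moved as a block. Of 30 genes tested of 32 listed 29 were higher in ESC and Plat did not pass, with 25 past 2-fold and a median of 2.95. The 9 transcription factors were all higher, with a median of 4.67. Gata6, which starts the lineage, stood at 32.3 and 29.2 CPM in ESC against 2.20 and 1.65 CPM in EpiSC (3.99 ± 0.14). Sox17 stood at 23.7 and 24.5 CPM in ESC against 0.734 and 0.454 CPM in EpiSC (5.33 ± 0.23). Hnf4a, a factor of the visceral endoderm, stood at 20.03 and 17.4 CPM in ESC against 0.245 and 0.289 CPM in EpiSC (6.12 ± 0.24). Levels in EpiSC were near the detection limit for these factors, and those in ESC were well above it in both libraries. Genes for the uptake of nutrients by visceral endoderm rose with them, namely Cubn (5.54 ± 0.19) and Amn (5.19 ± 0.31), as did Apoe at 2704 and 2673 CPM in ESC against 273 and 270.1 CPM in EpiSC (3.31 ± 0.05). Pluripotency genes and endoderm genes were thus both higher in the ESC libraries, and a minority of endoderm cells and low expression in every cell cannot be told apart.

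The other lineages moved less evenly. Trophoblast genes had 12 higher and 1 lower of 18 tested of 21 listed, at a median of 1.39, with Tfap2c (1.41 ± 0.06) and Gata2 (2.56 ± 0.13) among the higher. Of 16 definitive endoderm genes tested 13 were higher and 0 lower, a list that shares its leading factors Foxa2, Sox17, Gata4 and Gata6 with primitive endoderm. Mesoderm genes had 12 higher and 5 lower of 22 tested of 26 listed. Eomes was higher at 23.6 and 25.1 CPM in ESC against 12.7 and 11.7 CPM in EpiSC (0.99 ± 0.10). Of 26 neuroectoderm genes tested 11 were lower (42.3%, against 37.5% of all genes tested) and 8 higher (30.8% against 37%). These shares lay near the background, at a median of -0.03. Past 2-fold were 9 lower (34.6% against 13.5%) and 4 higher (15.4% against 14.3%). Sox1, which marks the neural plate, was lower (-4.45 ± 0.10), from 4.29 and 4.45 CPM in ESC against 97.2 and 93.5 CPM in EpiSC. Nes, which encodes nestin, was lower at 65.8 and 66.98 CPM in ESC against 360.0 and 366 CPM in EpiSC (-2.45 ± 0.05), and Msi1 was lower (-2.78 ± 0.09). Zic2 (0.46 ± 0.05) and Otx2 (1.81 ± 0.06) were higher, so that neural genes lay on both sides. Germ line genes had 21 higher and 6 lower of 28 tested, with 16 and 5 past 2-fold and a median of 1.05. Prdm14 stood at 59.8 and 59.7 CPM in ESC against 20.97 and 18.99 CPM in EpiSC (1.58 ± 0.06) and Prdm1 at 34.3 and 34.0 CPM in ESC against 11.3 and 9.99 CPM in EpiSC (1.68 ± 0.09), both factors that found the germ line. Sycp3 (2.84 ± 0.14) and Hormad1 (1.997 ± 0.11), which act on meiotic chromosomes, were higher, and Rec8, a meiotic cohesin, was lower at 2.40 and 3.04 CPM in ESC against 26.1 and 25.4 CPM in EpiSC (-3.25 ± 0.15). Of 25 genes of the 2-cell embryo 17 were tested, of which 2 were higher, 5 lower and 10 did not pass. Their summed levels were 251.6 and 252.4 CPM in ESC against 178.9 and 188.2 CPM in EpiSC. Zscan4d was near the detection limit, at 0.904 and 0.580 CPM in ESC against 1.71 and 1.16 CPM in EpiSC.

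Imprinted genes, which are expressed from 1 parental allele, had 18 higher (47.4%) and 13 lower (34.2%) among 38 tested of 41 listed. All genes tested gave 37% and 37.5%. Past 2-fold were 7 and 7, 18.4% each way, against 14.3% and 13.5% of all genes tested. Peg10 was higher at 779.8 and 771 CPM in ESC against 137 and 129.6 CPM in EpiSC (2.54 ± 0.05), Mest was higher at 111 and 115 CPM in ESC against 59.3 and 57.1 CPM in EpiSC (0.96 ± 0.05) and Dlk1 was higher (1.11 ± 0.09). Grb10 was lower at 181 and 181 CPM in ESC against 714 and 724 CPM in EpiSC (-1.99 ± 0.04), as were Phlda2 (-1.12 ± 0.10) and Slc38a4 (-1.21 ± 0.05). Genes expressed from the maternal and from the paternal allele occurred on both sides, and H19 differed by 0.11 ± 0.03, from 785 and 794 CPM in ESC against 730.4 and 728 CPM in EpiSC, a sign that turned with counts scaled by their totals. Xist, the RNA that silences an X chromosome in female cells, was lower at 30.2 and 31.6 CPM in ESC against 620.3 and 624 CPM in EpiSC (-4.33 ± 0.10, adjusted p = 1.92e-12). The counting strand is not given, and Xist overlaps its antisense gene Tsix. Rlim, which activates Xist, was higher (0.22 ± 0.04). The 608 tested genes of the X chromosome had a median log2 fold change of -0.23 against 0.01 over 15550 autosomal genes, with 182 higher (29.9%) and 286 lower (47%). At 10 CPM or more the X median was -0.17 over 353 genes, with quartiles of -0.69 and 0.42.

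The autosomes were not alike in this respect. Among the 1332 tested genes of chromosome 11, 335 were higher (25.2%) and 695 were lower (52.2%), at a median of -0.30. Among the 777 of chromosome 3, 215 were higher (27.7%) and 383 were lower (49.3%), at a median of -0.31. On chromosome 7, in contrast, 565 of 1280 genes were higher (44.1%) and 382 lower (29.8%), at a median of 0.15. Chromosome 15 (44.1% higher, 30.3% lower) and chromosome 17 (43.1% higher, 30.3% lower) were close to it. The shifts of chromosomes 3 and 11 thus exceeded that of the X chromosome in size, and autosomes as a whole gave 37.3% higher and 37.1% lower. Scaling by total counts shifts the genes of every chromosome by the same amount and so leaves the differences between chromosomes. The libraries measure RNA and give no count of chromosomes.

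**Figure D4:**
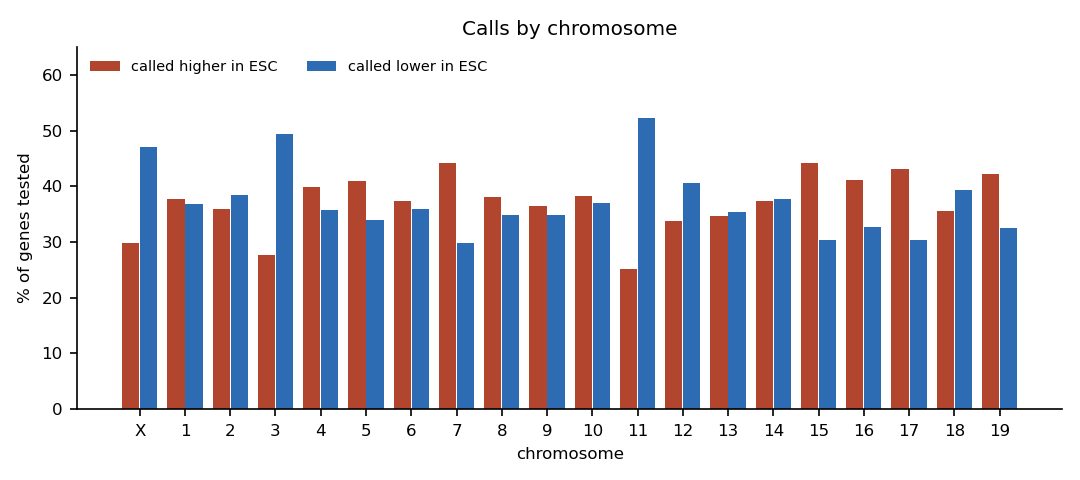
Percent of the tested genes of each mouse chromosome that were called higher (red bars) or lower (blue bars) in ESC. Chromosomes 3, 11 and X have more genes lower than higher (49.3%, 52.2% and 47% lower), and chromosomes 7, 15 and 17 have more genes higher than lower (44.1%, 44.1% and 43.1% higher).

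Interferon and antigen presentation genes gave 11 higher and 14 lower of 30, at a median of -0.21. Tap1 (-0.78 ± 0.10), Tap2 (-1.04 ± 0.10) and Psmb9 (-1.48 ± 0.19), which prepare peptides for MHC class I, were lower together, and Psmb9 stood at 2.40 and 2.17 CPM in ESC against 6.57 and 6.23 CPM in EpiSC. Ifitm1 (2.45 ± 0.06) and Ifitm3 (1.18 ± 0.05), membrane proteins that hold back virus entry, and the RNA sensor Ddx58 (2.47 ± 0.07) were higher. Small RNA genes had 5 higher and 8 lower of 15, with Trim71, a partner of LIN28, higher (1.23 ± 0.06) and Zcchc11 lower (-1.45 ± 0.06). For the MYC network 12 of 20 genes were higher and 5 lower, with a median of 0.47. Myc stood at 83.8 and 86.7 CPM in ESC against 32.6 and 35.1 CPM in EpiSC (1.33 ± 0.06) and Mycn differed by 0.62 ± 0.04, while the antagonist genes Mxd1 (2.07 ± 0.10) and Mnt (1.77 ± 0.05) were higher and Mxd4 (-1.51 ± 0.11) lower. Activators and antagonists of the network were thus both among the higher genes. Splicing regulators had 10 higher and 9 lower of 22 at a median of 0.13 that became -0.02 with counts scaled by their totals. Ptbp1 was higher at 624 and 611 CPM in ESC against 431 and 420.2 CPM in EpiSC (0.54 ± 0.04), and its neural paralog Ptbp2 (-0.88 ± 0.07) and the neural regulators Nova1 (-1.59 ± 0.13) and Nova2 (-1.85 ± 0.12) were lower.

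Gene families were taken by symbol across the whole table. Cytosolic ribosomal protein genes had 57 higher and 6 lower of 80 tested, 9 and 0 past 2-fold, with a median of 0.50, while 77 mitochondrial ribosomal protein genes comprised 20 higher and 39 lower, at a median of -0.14. Rpl8 stood at 2576 and 2557 CPM in ESC against 1546 and 1571 CPM in EpiSC (0.72 ± 0.04), and reads of ribosomal protein genes are uncertain because many processed copies exist. Aminoacyl-tRNA synthetases gave 20 higher and 5 lower of 34. The cytosolic genes Cars (1.39 ± 0.04) and Iars (1.06 ± 0.04) were higher, and the mitochondrial Tars2 (-0.75 ± 0.04) lower, so that the cytosolic and mitochondrial forms named moved apart, as the ribosomal genes did in their counts. Proteasome genes gave 7 higher and 22 lower of 38 at a median of -0.16, and the germ line subunit Psma8 was the 1 higher gene past 2-fold (2.69 ± 0.19).

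Several families of adhesion, channel and guidance proteins known from neurons had more members lower than higher in ESC, while others did not. Clustered protocadherins, adhesion molecules that give neurons their identity, had 44 tested of 58 listed. Of these 26 were lower (59.1%, against 37.5% of all genes tested) and 3 higher (6.82% against 37%). Past 2-fold were 20 and 3, and the median was -1.02. Levels were low, with sums over the 44 genes of 109.0 and 108.9 CPM in ESC against 195.3 and 191.7 CPM in EpiSC. A gene could pass the filter on low counts through 1 group alone. Pcdhgc3 stood at 44.7 and 45.7 CPM in ESC against 89.3 and 90.4 CPM in EpiSC (-0.99 ± 0.06), and Pcdha3, Pcdha6 and Pcdha7 had 0 counts in both ESC libraries. Calcium and sodium channels had 18 lower and 7 higher of 33 tested, with 16 and 3 past 2-fold and a median of -1.38, which was -0.91 without ESC replicate 1 and -0.72 without ESC replicate 2. Cacna1g, a T-type calcium channel, stood at 12.1 and 13.5 CPM in ESC against 42.1 and 40.7 CPM in EpiSC (-1.70 ± 0.09). Scn8a (-1.51 ± 0.11) and Cacnb2 (-2.72 ± 0.23) were lower too. Ephrins and their receptors, which steer migrating cells, gave 12 lower and 5 higher of 20 tested at a median of -0.57, with Epha7 lower (-1.65 ± 0.11) and Epha4 higher (1.92 ± 0.05). Potassium channels were more even, 28 lower and 22 higher of 71 tested, but held Kcnj3, which fell from 30.3 and 31.2 CPM in EpiSC to 0.181 and 0.193 CPM in ESC (-7.34 ± 0.40). For the members given with their levels, both EpiSC libraries exceeded both ESC libraries. Glutamate and GABA receptors had 11 higher and 12 lower of 28 tested, and netrins, slits and robos had 7 higher and 5 lower of 18.

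Transcription factor families leaned the other way in several cases. KLF and SP factors gave 16 higher and 4 lower of 25 tested at a median of 0.75, with Klf5 at 234 and 235 CPM in ESC against 34.1 and 29.9 CPM in EpiSC (2.87 ± 0.09), Klf9 (2.03 ± 0.05) and Klf12 (2.57 ± 0.09) higher and Klf11 (-1.06 ± 0.06) and Sp8 (-2.87 ± 0.33) lower. All 5 GATA factors tested were higher, at a median of 2.61, which was 3.38 without EpiSC replicate 2. T-box factors had 10 higher and 2 lower of 14, and POU factors 8 higher and 3 lower of 12. Nuclear receptors gave 19 higher and 14 lower of 40, with Nr0b1 (3.66 ± 0.05) and Esrrb (1.57 ± 0.03) higher and the thyroid hormone receptor Thra (-1.05 ± 0.08) lower. The SOX family had 6 higher and 7 lower of 18: Sox7 (3.96 ± 0.15) and Sox21 (4.74 ± 0.13) were higher and Sox10 (-4.77 ± 0.35) lower. HOX genes had 12 higher and 3 lower of 37 tested, with 6 and 1 past 2-fold, and 22 did not pass. Their levels were low, with sums over the 37 genes of 85.0 and 86.1 CPM in ESC against 67.2 and 68.7 CPM in EpiSC. Among structural families laminins had 9 higher and 1 lower of 11, keratins 9 higher and 2 lower of 16 tested of 48 listed, and claudins 3 higher and 7 lower of 15 tested. Cldn4, a claudin of the blastocyst epithelium, was higher at 182 and 179.5 CPM in ESC against 30.96 and 30.1 CPM in EpiSC (2.56 ± 0.05), whereas Cldn11 was lower at 0.271 and 0.145 CPM in ESC against 10.8 and 9.62 CPM in EpiSC (-5.58 ± 0.45). Aquaporins, which pass water and glycerol, had 5 higher and 2 lower of 8 tested, with Aqp3 at 376 and 382 CPM in ESC against 13.99 and 11.6 CPM in EpiSC (4.88 ± 0.06).

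**Figure D5:**
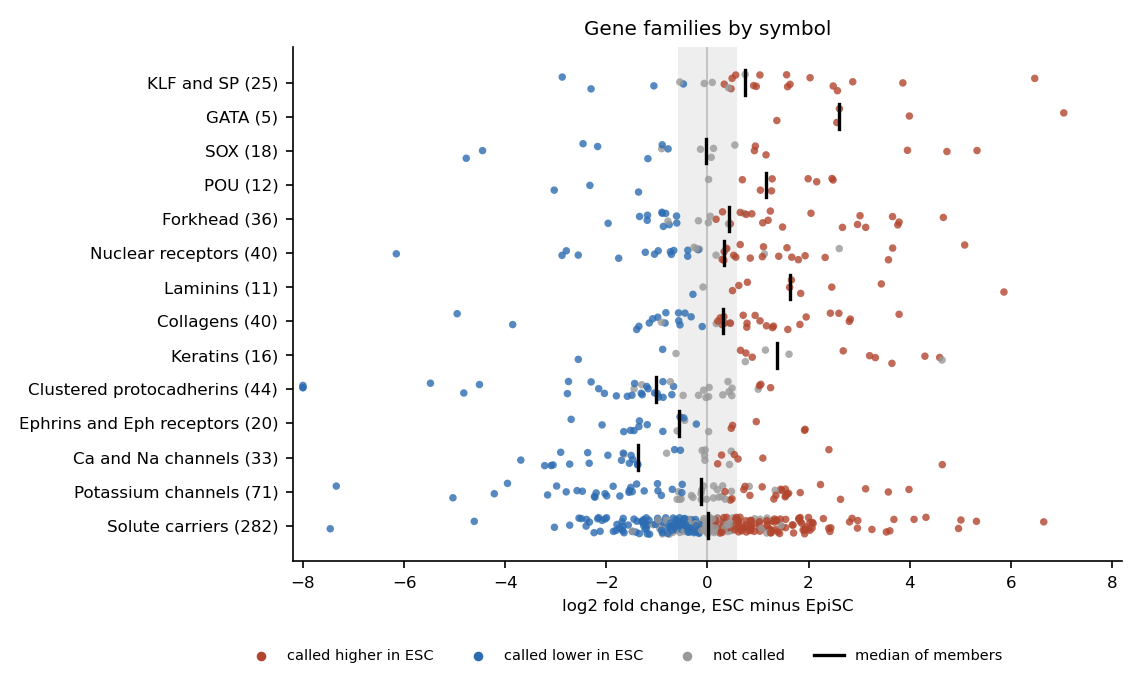
Log2 fold change of ESC against EpiSC for each tested member of gene families, on an axis from -8 to 8, with the grey band at the quartiles of all genes tested and a black bar at each family's median. Pcdha3, Pcdha6 and Pcdha7, at 0 counts in ESC, are drawn at the edge. Red points are genes called higher in ESC, blue points those called lower and grey points those not called. GATA factors and laminins lie mostly to the right of 0, and clustered protocadherins and calcium and sodium channels mostly to the left.

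Other genes were named for the size of their differences at 100 CPM or more in either state. Higher in ESC beside Dnmt3l were Ephx2 (5.03 ± 0.08), an epoxide hydrolase, Cdyl2 (4.67 ± 0.07), a chromodomain protein, Gpa33 (3.90 ± 0.06), P2rx7 (3.86 ± 0.07), an ATP-gated ion channel, and Morc1 (3.77 ± 0.05), a germ line factor that silences transposons. Morc1 stood at 234 and 233 CPM in ESC against 16.6 and 17.6 CPM in EpiSC. Ephx2 stood at 189.6 and 191 CPM in ESC against 5.75 and 5.90 CPM in EpiSC. Lower in ESC were Atp1b2 (-4.03 ± 0.08), a subunit of the sodium pump, Cd59a (-4.02 ± 0.10), an inhibitor of complement, Ngfr (-3.48 ± 0.06), the low affinity neurotrophin receptor, Chst1 (-3.19 ± 0.08), Tmem47 (-3.07 ± 0.07), Prtg (-2.96 ± 0.08) and Sema3e (-2.88 ± 0.06). Prtg, an immunoglobulin superfamily protein of the early neural tube, stood at 16.6 and 15.7 CPM in ESC against 126 and 125 CPM in EpiSC. In each of these genes the lower state kept a detectable level, so that the fold rests on counts in all 4 libraries.

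At 10 CPM or more in one state and under 0.1 CPM in the other there were 4 genes for ESC and 2 for EpiSC. In ESC Aqp8, a water channel, had 911 and 907 counts against 0 and 0 in EpiSC, which is at least 690-fold higher, taking 3 counts in the group as the floor. Gkn2 had 335 and 301 counts against 0 and 0, at least 241-fold higher. Hkdc1, a hexokinase-like gene, had 426 and 451 counts in ESC against 1 and 0 in EpiSC, a ratio of 998 with a counting interval of 179 to 39476. Spink3 had 238 and 227 counts in ESC against 0 and 1 in EpiSC, a ratio of 529 with a counting interval of 94.5 to 20952. In EpiSC the olfactory receptor gene Olfr293 had 405 and 384 counts against 1 and 1, a ratio of 347 with an interval of 95.6 to 2867. Jakmip2, which encodes a microtubule binding protein of neurons, had 298 and 291 counts in EpiSC against 1 and 2 in ESC, a ratio of 172 with an interval of 58.7 to 839. These 95% intervals cover counting error only.

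The most abundant transcripts were largely shared. The 10 genes with the highest CPM in ESC included Eef2, Hsp90ab1, Eef1a1, Actb, Tubb5 and Gnb2l1, all of which were among the 10 highest in EpiSC as well, together with Fn1 and the ribosomal RNA gene Rn45s. Pkm (0.88 ± 0.04) and Apoe stood among the 10 highest in ESC and not in EpiSC. Nedd4, a ubiquitin ligase, at 1764 and 1738 CPM in ESC against 2261 and 2289 CPM in EpiSC (-0.38 ± 0.03), and Ncl, the nucleolar protein nucleolin, at 1574 and 1573 CPM in ESC against 1772 and 1792 CPM in EpiSC (-0.18 ± 0.03), stood among the 10 highest in EpiSC and not in ESC. Between-gene order here is by CPM, which is not corrected for transcript length.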

How the data were processed

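RNA from the 4 libraries, prepared with RNeasy columns, DNase and TruSeq per the labels, was sequenced from 1 end. The authors deposited a table of read counts per gene for the whole series. TopHat2, Subread and DESeq, and mm9 as the mouse build, are listed without versions in the submitters' processing notes. How strand and reads with several matches were handled is not given in these sources. Genes with near-identical copies, and genes that overlap another on the opposite strand, are therefore uncertain.

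The deposited counts were tested in R 4.3.3 with edgeR 4.0.16 (limma 3.58.1): genes with low counts were dropped with filterByExpr, libraries were scaled by TMM, and a robust quasi-likelihood model with 1 mean per group was fitted to all 14 libraries. The contrast was ESC minus EpiSC, with Benjamini-Hochberg adjustment over all 16247 genes tested, and a standard error is the log2 fold change divided by the square root of F. Members and lists were chosen with earlier results of these data known, and the lists are described by counts and medians, without a test. Genes named are list members, chiefly those with the largest called changes at 10 CPM or more and those not called, the leading members of each family, the genes with the largest changes at 10 and at 100 CPM or more, and the 10 genes with the highest CPM in each state. On simulated counts for 16084 genes, 100% of 50 genes changed 4-fold were called, 98% of those changed 2-fold, 96% at 1.5-fold and 62% at 1.25-fold, and 2.73% of calls were false. The simulated counts followed the fitted spread, few genes were changed, and those were picked from genes above a low mean level. These rates therefore do not extend to genes of low counts or to a comparison in which most genes are called.

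Promoter sequences were matched by symbol from RefSeq on GRCm38.p6, and no searched motif contains the letters of another. The lists searched were chosen for known roles. A motif share above that of all promoters therefore does not bear on the difference between the states. Chromosomes were matched by symbol for 16162 genes (99.5%). Spreadsheet dates had replaced 27 gene names (at most 0.254% of counts), and 2 columns with no matching sample were not used. Alternatives tried were DESeq2 1.42.0, relative log expression (RLE) and total-count scaling, no filter, the 4 libraries alone, fewer other libraries, a replicate block, leaving out each replicate, and other thresholds. Tables and plots used pandas 2.3.3, numpy 2.4.6, scipy 1.17.1 and matplotlib 3.10.9.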

Additional observations from a re-analysis of the deposited data

How the results depend on the processing

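The 12103 calls became 12048 with a replicate block (5998 higher, 6050 lower), which changed the call of 0 of the 373 genes named. The deviations of replicate 1 from its group mean had a correlation of 0 between ESC and EpiSC. This cannot show whether the replicate numbers pair the libraries, since replicates differed by little more than counting error. Scaling by total counts gave 4899 higher and 7249 lower (40.3% of calls higher, against 49.7%) and turned the sign of Ctnnb1 (-0.02), Dnmt1 (-0.03), H19 (-0.04), Hsp90ab1 (-0.07) and Kmt2a (-0.02), none of which then passed. Eef1a1, Ndc80 and Rlim lost their call under it, and Ier2, Lef1, Mvk, Nodal and Pycr1 gained one. Stat3 and Suz12 gained a call with no filter, with the 4 libraries alone and without the MM401 day 3 and P2 libraries, Rn45s with the first 2 of these and Fgfr2 with the 4 libraries alone, and Hif1a lost its call with no filter. Total-count scaling moved the median of X-linked genes from -0.23 to -0.38, with that of all genes at -0.15, and testing without a filter gave an X-linked median of -0.21. The list medians that turned negative under total-count scaling included those for heat shock, Hedgehog, Nodal, WNT, Polycomb, splicing regulators and the citric acid cycle. The same held for chromatin remodelling (0.01 to -0.15), for metallothioneins and iron (0.01 to -0.15), and for several families. The median of the 2-cell list, -0.65, became 0.04 without ESC replicate 2. Testing against a 2-fold threshold with glmTreat gave 1676 higher and 1413 lower. With limits of 20 and 0.2 CPM, 2 genes met the limits for ESC and 1 for EpiSC, against 4 and 2 at 10 and 0.1 CPM. Leaving out 1 library gave between 11131 and 11254 calls, and between 1 and 5 of the named genes then lost their call: Hsp90ab1 without each of the 4, Hif1a without ESC replicate 2 or either EpiSC replicate, Kmt2a and Zscan4d without ESC replicate 2 or EpiSC replicate 1, Tubb5 without ESC replicate 2 and Ndc80 without EpiSC replicate 1. DESeq2 gave 5768 higher and 5886 lower and changed the call of 0 named genes. Near 1 CPM a gene rests on about 20 reads per library, which limits the Zscan4d and HOX values.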

Other observations

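Some families outside the pathways above were also divided between the states. Of 40 collagen genes tested of 44 listed 22 were higher in ESC (55%, against 37% of all genes tested) and 15 lower (37.5%, as of all genes tested). Their median was 0.31, with Col12a1 (1.95 ± 0.04) higher and Col7a1 (-1.40 ± 0.09) lower. Integrins, the receptors that hold cells to the matrix, were divided 10 to 10 among 28 tested, 35.7% each way and so near the background. Itga3, which pairs into a laminin receptor, was lower at 43.2 and 41.0 CPM in ESC against 196 and 193 CPM in EpiSC (-2.21 ± 0.05). Semaphorins and their plexin and neuropilin receptors, which guide growing axons, had 12 higher and 15 lower of 31, with Nrp2 (2.16 ± 0.05) and Sema4b (1.92 ± 0.05) higher and Sema6a (-2.77 ± 0.09) and Sema6c (-3.04 ± 0.09) lower. Forkhead factors comprised 19 higher (52.8%, against 37% of all genes tested) and 11 lower (30.6% against 37.5%) of 36 tested. Of 9 PRAME family genes tested 5 were higher and 2 lower, led by Pramef12 (4.36 ± 0.11), and reads of that family are uncertain because its copies are nearly alike.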
